A study of Mus musculus with 6 samples.

Results

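Collagen chain genes were taken from a table of raw read counts by their symbols, Col followed by a chain number, the letter a and a second number. The rule found 44 genes among the 24421 in the table. Of these, 41 had at least 1 count in some library, 25 had enough counts to be tested, and 14 differed between the groups. The cells were C2C12, a mouse myoblast line that fuses into myotubes when serum is lowered. The cells of all 6 libraries carried a lentivirus with a short hairpin RNA, had been selected with puromycin, and had been differentiated in 2% horse serum with 4.5 g/l glucose. The hairpin was directed against Gaa in the shGAA libraries (n = 3) and had a scrambled sequence in the shScrambled libraries (n = 3). The sample titles give the word Fed in both groups without saying what it stands for. The number of hairpin sequences is not stated. Separate cultures are not stated for the libraries of a group either, so a p-value here covers the spread among these 6 libraries alone, and that spread may be technical.

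Collagens are the main structural proteins of the extracellular matrix. Their chains fold into a triple helix that needs a glycine in each triplet of residues, and the chain combination decides what is built: fibrils, the sheet of a basement membrane, or beaded filaments. In muscle, fibrillar types I, III and V make up most of the connective tissue between fibres, type IV forms the network of the basement membrane around each fibre, and type VI links that membrane to the surrounding matrix. Muscle cells, and the fibroblasts that lie beside them in tissue, both make collagen RNA. The comparison asks which of these chain RNAs differ in cells with a hairpin against Gaa, the gene of the lysosomal enzyme acid alpha-glucosidase, which breaks down glycogen.

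The repeat that makes the helix can be read in the coding sequence. It is shown here for chains of the classes that the results turn on, as the first 6 triplets of the longest glycine run. Capitals mark the glycine codon that opens each triplet, and glycine codons at other positions are in lower case. The sequences are written 5′ to 3′ on the coding strand, from the longest coding transcript of GENCODE M21 on GRCm38. They start at base 647 of the Col1a1 transcript, 700 of Col3a1, 354 of Col4a1, 6747 of Col6a3, 8548 of Col12a1 and 1283 of Col8a1.
Col1a1: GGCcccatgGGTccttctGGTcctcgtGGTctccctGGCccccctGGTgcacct
Col3a1: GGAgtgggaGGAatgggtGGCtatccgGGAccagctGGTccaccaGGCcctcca
Col4a1: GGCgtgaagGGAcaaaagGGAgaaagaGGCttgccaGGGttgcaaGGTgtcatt
Col6a3: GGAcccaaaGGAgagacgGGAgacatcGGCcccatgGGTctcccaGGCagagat
Col12a1: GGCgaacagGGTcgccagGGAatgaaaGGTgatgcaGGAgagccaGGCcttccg
Col8a1: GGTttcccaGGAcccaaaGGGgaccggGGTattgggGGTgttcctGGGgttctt

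All 44 genes had at least 1 run of 6 or more such triplets. The 11 fibrillar genes carried 2 or 3 runs, the longest of 216 to 344 triplets with a median of 338. The 6 basement membrane genes carried 22 to 27 runs, the longest of 39 to 66 triplets. The 6 beaded filament genes had 3 to 5 runs, the longest of 37 to 87 triplets, and the 9 fibril-associated genes had a longest run of 32 to 113. In the fibrillar, basement membrane and fibril-associated classes, called genes and tested genes not called had longest runs of overlapping length, as the plot shows. In the beaded filament class the called Col6a3 had 45 triplets, and Col6a1 and Col6a2, tested and not called, had 87.

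**Figure D1:**
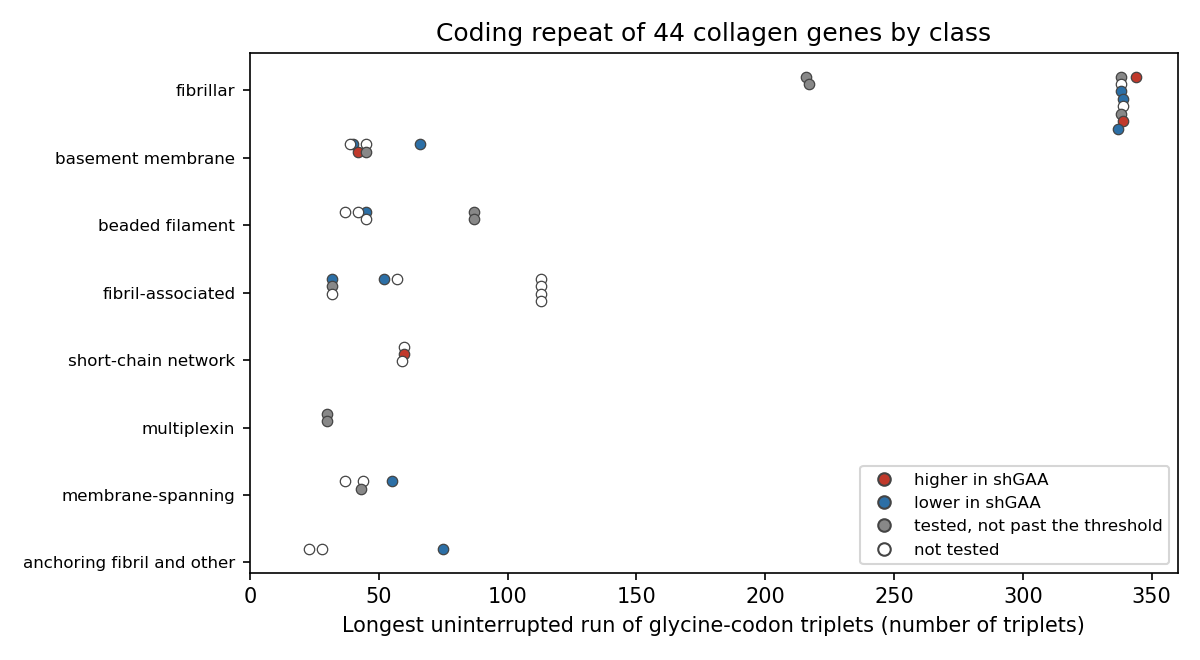
Longest uninterrupted run of glycine-codon triplets (x axis, number of triplets) in each of the 44 collagen genes, by class; colour gives the result of the test between shGAA and shScrambled. Fibrillar genes sit at 216 to 344 triplets and every other class at or below 113, and higher and lower genes occur within the same class.

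The hairpin target was checked first. Gaa counts were 469, 445 and 552 with the Gaa hairpin (shGAA 1 to 3) and 1033, 1158 and 1119 with the scrambled one, and its level was 42.1% of that in controls (log2 fold change -1.25 ± 0.07 SE, adjusted p = 1.09e-09). Libraries held 9224038 to 10430270 counts. Levels are given in CPM, each count divided by a library size that TMM adjusts for composition. Counting noise alone gives a chi-square of about 1 per degree of freedom between a pair of libraries. Over all tested genes, pairs within a group gave 1.98 to 2.62, apart from shScrambled 1, which gave 6.08 and 5.50 against the other controls. Over the collagen genes the values were larger, at 4.36 to 7.40 within shGAA, 5.36 for shScrambled 2 and 3, and 8.12 and 14.2 for shScrambled 1 against those. This statistic grows with the count wherever libraries differ by more than counting noise. A level of at least 100 CPM was reached by 12 of 25 tested collagen genes and by 2483 of all 11801 tested genes. The larger values were therefore not compared at equal level. The median collagen gene lay 0.05 (log2) above the other controls in shScrambled 1, and at -0.03 in shScrambled 2 and -0.07 in shScrambled 3.

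Summed collagen RNA overlapped between the groups while its composition differed. The 44 genes summed to 7915 to 8057 CPM in shGAA and 8051 to 8256 in shScrambled, ranges that overlap by a narrow margin. Their share of all counts, which has no TMM scaling, leaned the other way. It was 0.812% ± 0.007 in shGAA and 0.799% ± 0.011 in shScrambled (SD, n = 3). Col3a1, the single chain of type III collagen, took 42.7% ± 1.04 of collagen counts in shGAA and 34.0% ± 0.835 in shScrambled. Without Col3a1 the other 43 genes summed to 4444 to 4682 CPM in shGAA, below the 5287 to 5531 CPM in shScrambled. In bulk RNA, fewer cells that make a transcript and less of it per cell cannot be told apart.

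**Figure D2:**
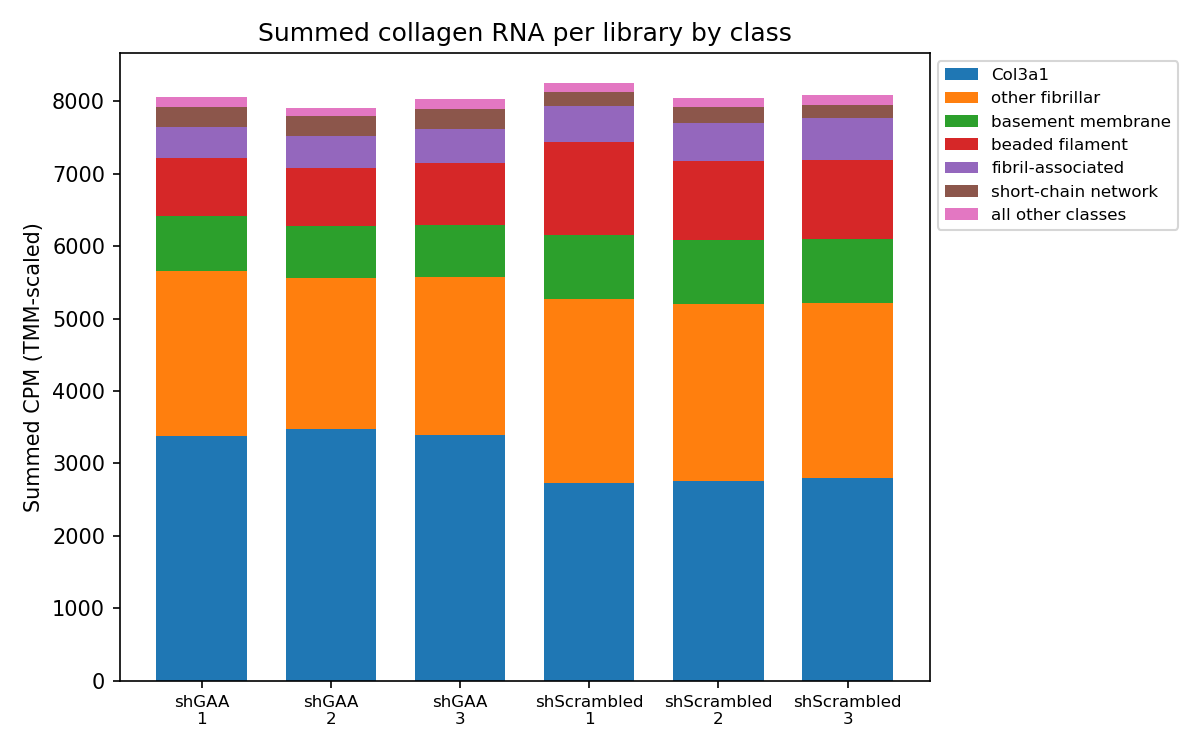
Summed CPM of collagen genes in each of the 6 libraries (y axis, from 0), stacked by class with Col3a1 shown apart from the other fibrillar genes. The total differs little between libraries, at 7915 to 8256 CPM, while the Col3a1 block is taller and the basement membrane and beaded filament blocks are shorter in the 3 shGAA libraries.

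Of the 25 tested genes, 4 were higher in shGAA (Col3a1, Col5a2, Col8a1 and Col4a5) and 10 were lower (Col1a1, Col1a2, Col5a3, Col4a1, Col4a2, Col6a3, Col12a1, Col16a1, Col17a1 and Col7a1) at an adjusted p under 0.05. The 14 are 56% of the tested collagen genes, where 38.2% of all 11801 tested genes were called. The 4 higher genes are 16%, against 18.5% of all tested genes, and the 10 lower genes are 40%, against 19.7%. The same 14 genes were the ones whose CPM did not overlap between the groups, again 56%, against 49.6% of all tested genes. The share of higher genes is thus near the background, and the share of lower genes is above it.

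A gene's level decides in part whether a difference can be detected. Among genes of at least 100 CPM, 9 of 12 collagen genes (75%) and 49.9% of 2483 tested genes were called. At 5 to 100 CPM the figures were 5 of 7 collagen genes (71.4%) and 37% of 7852 genes. Below 5 CPM, 0 of 6 collagen genes and 25% of 1466 genes were called by edgeR. Of these 6, 1 (Col14a1) had an unadjusted p under 0.05, and DESeq2 and limma-voom also called 0. Over the 25 genes the median log2 fold change was 0.03, against 0.01 over all tested genes, and the median size of change regardless of sign was 0.29, against 0.18.

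**Figure D3:**
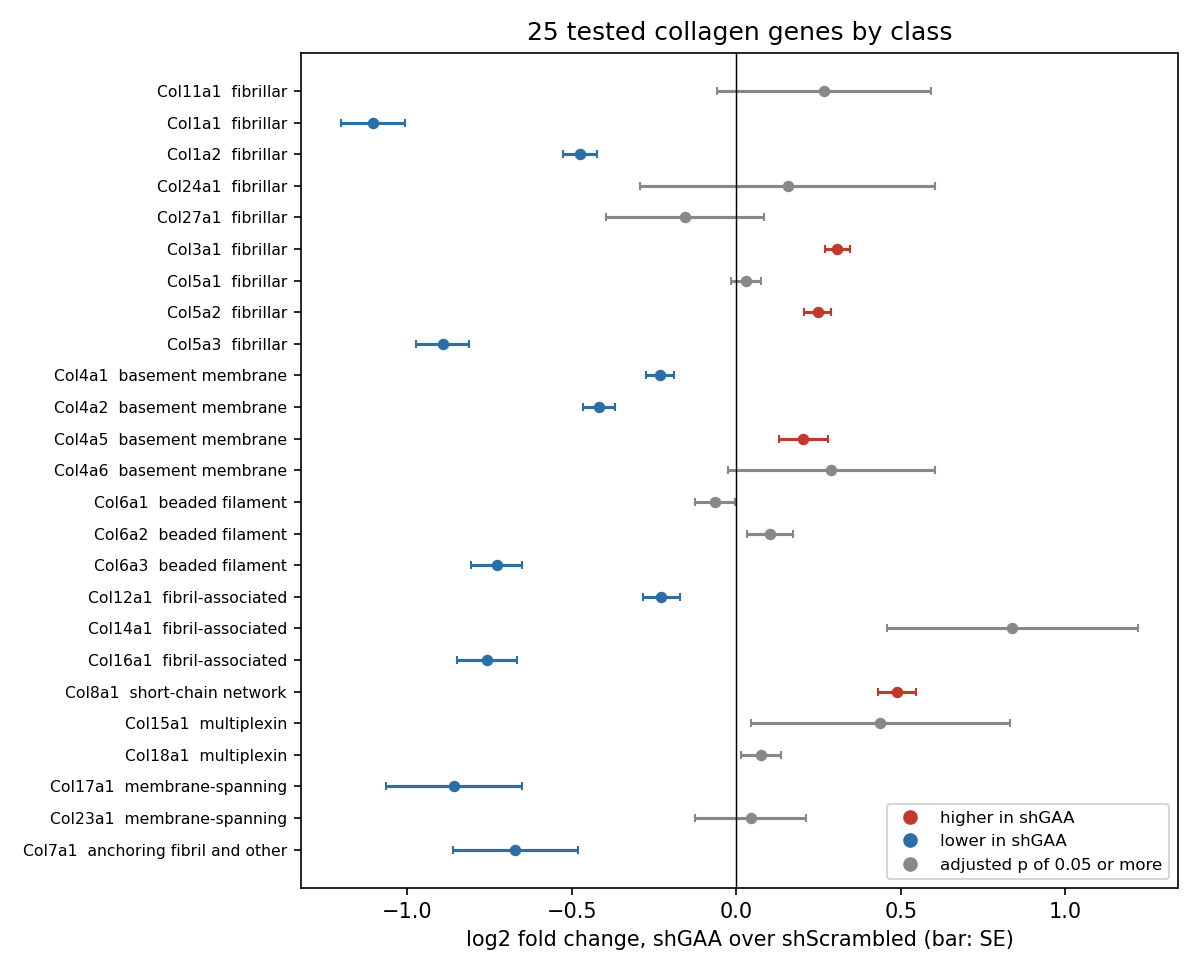
Log2 fold change of shGAA over shScrambled (x axis) with its standard error for the 25 tested collagen genes, ordered by class; red marks higher, blue lower and grey an adjusted p of 0.05 or more. Fibrillar and basement membrane genes lie on both sides of 0, and in the beaded filament and fibril-associated classes the genes past the threshold are all lower.

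Fibrillar collagens moved in opposite directions. Of 9 tested genes 2 were higher, 3 were lower and 4 were not called, and the whole class summed to 5597 ± 46.5 CPM in shGAA and 5227 ± 33.2 in shScrambled (SD, n = 3). Col3a1 alone held 3413 CPM of that sum in shGAA and 2759 in shScrambled, a larger difference than that of the whole class. Col3a1 encodes the chain of type III collagen, which forms thin fibrils in distensible tissues. It stood at 3375, 3471 and 3395 CPM in the shGAA libraries and at 2725, 2759 and 2794 in the controls. All shGAA libraries were above all controls, and within each group the values lay close together. The log2 fold change was 0.31 ± 0.04 (SE, adjusted p = 7.46e-06). By count it ranked 6th or 7th among all genes in the shGAA libraries and 12th or 13th in the controls. Per kilobase of transcript it was also the highest collagen, at 613 CPM per kb in shGAA and 496 in shScrambled.

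Type I collagen, the main fibril protein of tendon, bone and most connective tissue, was lower for both of its chains. Col1a2, its alpha 2 chain, had 698, 594 and 664 CPM in shGAA and 907, 894 and 917 in shScrambled. The shGAA libraries were more spread out than the controls but all lay below them, and the fold change was -0.47 ± 0.05 (log2 ± SE, adjusted p = 2.29e-06). Col1a1, the alpha 1 chain, had the largest fall of any tested collagen gene. Its counts were 191, 177 and 230 in shGAA and 429, 351 and 444 in shScrambled, or 20.0 ± 1.43 against 43.1 ± 4.93 CPM (SD, n = 3). The change was -1.10 ± 0.10 (log2 ± SE, adjusted p = 1.96e-07), and the groups were well apart.

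The level of Col1a1 was low against its partner in both groups. Type I collagen is usually built from a pair of alpha 1 chains and 1 alpha 2 chain, yet Col1a2 RNA exceeded Col1a1 RNA per kilobase by 36.1-fold in shGAA and 23.4-fold in shScrambled. Per kilobase Col1a1 stood at 3.37 and 7.26 CPM per kb and Col1a2 at 122 and 169. Col1a1 (chr11:94936224-94953042 on GRCm38, plus strand) shares 0% of its 50-base stretches with transcripts of other genes and 0% of its exonic bases with another gene. Settings for assigning reads to genes: not given in the sources used here.

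Type V collagen, which lies inside type I and III fibrils and regulates their diameter, has 3 chain genes, of which 1 rose, 1 fell and 1 was not called. Col5a2 had 793, 762 and 759 CPM in shGAA and 658, 645 and 646 in shScrambled, and was higher by 0.25 ± 0.04 (log2 ± SE, adjusted p = 0.000163). Col5a1, the chain it assembles with, had 593, 552 and 563 CPM in shGAA and 574, 562 and 535 in shScrambled. The Col5a1 ranges overlap, and the difference of 0.03 ± 0.05 (log2 ± SE) was not past the threshold (adjusted p = 0.633). Col5a3, a chain of more restricted expression, had 166, 162 and 165 CPM in shGAA and 348, 299 and 268 in shScrambled. It fell by 0.89 on the log2 scale (SE 0.08, adjusted p = 8.71e-06), and its controls spread more widely than its shGAA libraries. Col11a1, Col24a1 and Col27a1 were tested at group means of at most 4.06 CPM and were not called.

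Col3a1 and Col5a2, the 2 fibrillar genes that were higher, are neighbours on chromosome 1. Col3a1 (chr1:45311538-45349706) runs on the plus strand and Col5a2 on the minus strand, with their ends facing each other and 24614 bases between them. No test was made of the pair as such.

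**Figure D4:**
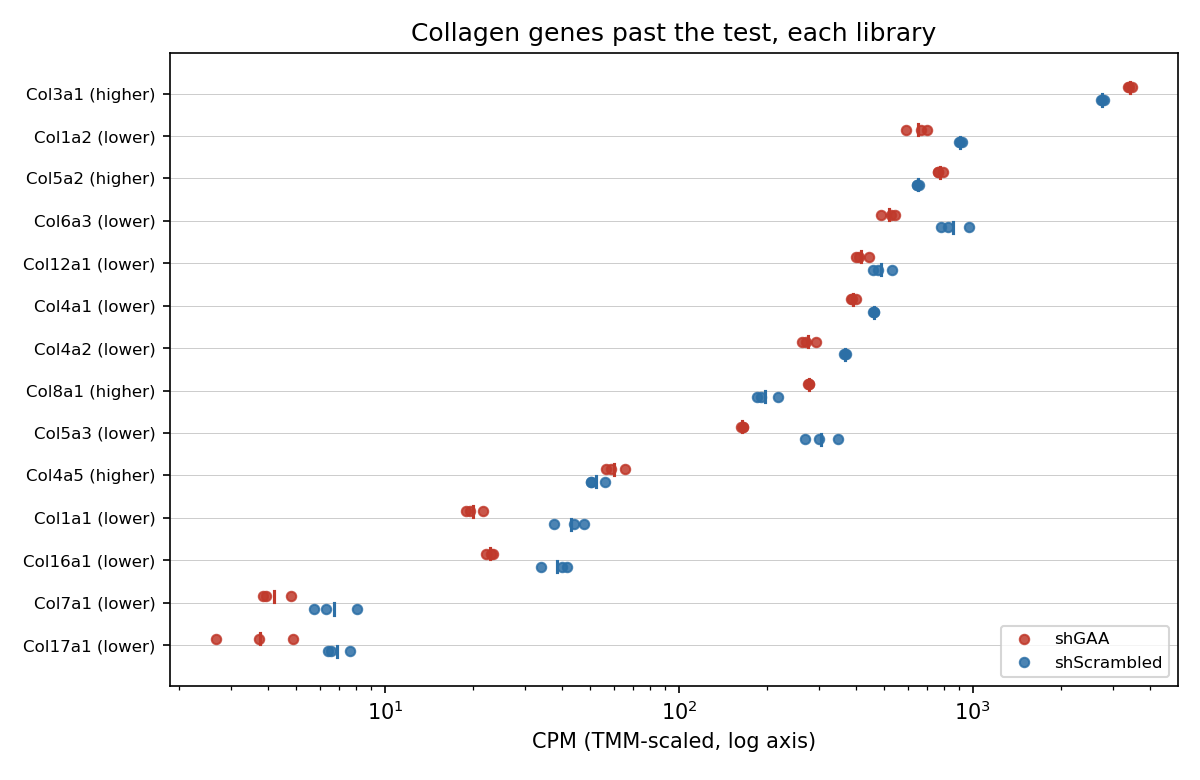
CPM on a log axis (x) of the 14 collagen genes past the test, ordered by level, with 1 point per library and a tick at the group mean; red is shGAA and blue is shScrambled. The groups do not overlap for any of the 14, and Col1a1, Col5a3 and Col16a1 show wide gaps between them.

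Type IV collagen, the network of the basement membrane, was lower for its 2 common chains. The class summed to 729 ± 27.7 CPM in shGAA and 882 ± 6.35 in shScrambled (SD, n = 3), and of 4 tested genes 1 was higher, 2 were lower and 1 was not called. Col4a1 had 400, 388 and 386 CPM in shGAA and 460, 456 and 462 in shScrambled, a change of -0.23 ± 0.04 (log2 ± SE, adjusted p = 0.000369). Col4a2 had 293, 263 and 271 CPM in shGAA and 371, 369 and 366 in shScrambled, a change of -0.42 ± 0.05 (adjusted p = 4.03e-06). For both, the 3 controls were nearly equal and every shGAA library lay below them. The 2 genes lie head to head on chromosome 8 on opposite strands and overlap by 22 bases at their starts.

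Col4a5, which encodes a chain of the type IV network found in a subset of basement membranes, was the only higher gene of the class. It had 65.8, 56.3 and 58.6 CPM in shGAA and 56.2, 50.3 and 50.4 in shScrambled. The lowest shGAA library and the highest control were almost level, at 56.3 and 56.2. The change was 0.20 ± 0.07 (log2 ± SE, adjusted p = 0.0374). This call was lost under 6 of 14 other settings: DESeq2 (adjusted p = 0.103), a length and GC correction (0.0794), and the fits without shGAA 1, shGAA 3, shScrambled 2 or shScrambled 3 (0.0569 to 0.207). Col4a6, its neighbour on the X chromosome 1308 bases away in the opposite direction, stood at 1.79 against 1.48 CPM and was not called.

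Type VI collagen forms beaded filaments near the basement membrane, and changes in any of its main chains cause muscle disease in people. The class summed to 820 ± 29.1 CPM in shGAA and 1162 ± 103 in shScrambled (SD, n = 3), and of 3 tested genes 1 was lower and 2 were not called. Col6a3, the largest chain, had 525, 486 and 542 CPM in shGAA and 970, 820 and 782 in shScrambled. All shGAA libraries were far below the controls, the highest of which was shScrambled 1, and the change was -0.73 ± 0.08 (log2 ± SE, adjusted p = 5.13e-05). Col6a1 had 182, 212 and 203 CPM in shGAA and 212, 195 and 217 in shScrambled, and Col6a2 had 94.8, 107 and 108 against 99.0, 86.4 and 104. Both overlapped between the groups, with changes of -0.06 ± 0.06 and 0.10 ± 0.07 (log2 ± SE, adjusted p = 0.425 and 0.275).

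Fibril-associated collagens sit on the surface of fibrils and tie them to other matrix. Of 3 tested genes 2 were lower and 1 was not called, and the class summed to 430 to 469 CPM in shGAA and 504 to 569 in shScrambled. Col12a1 had 401, 409 and 442 CPM in shGAA and 459, 476 and 533 in shScrambled, a change of -0.23 ± 0.06 (log2 ± SE, adjusted p = 0.00479). Its groups are apart by a narrow margin, from 442 to 459. Col16a1 had 23.0, 22.1 and 23.3 CPM in shGAA and 41.6, 40.2 and 33.9 in shScrambled, a change of -0.76 ± 0.09 (adjusted p = 6.07e-06). Col14a1 had counts of 43, 40 and 18 in shGAA and 24, 20 and 10 in shScrambled. Its difference of 0.84 ± 0.38 (log2 ± SE) was not called (adjusted p = 0.102) but passed under 4 of 14 other settings, among them the fits without shGAA 3 (1.19, adjusted p = 0.00860) or shScrambled 1 (1.08, adjusted p = 0.0332).

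Outside these 4 classes, 3 genes differed. Col8a1, a short-chain collagen that forms open networks in vessel walls and corneal membrane, had 275.8, 276.6 and 276.8 CPM in shGAA and 184, 217 and 190 in shScrambled. It was higher by 0.49 ± 0.06 (log2 ± SE, adjusted p = 4.40e-06), the largest rise of any tested collagen gene past the threshold. Col17a1, a membrane-spanning collagen of hemidesmosomes, and Col7a1, the chain of anchoring fibrils, are best known from skin, and both were rare here. Col17a1 had 2.66, 3.73 and 4.89 CPM in shGAA and 6.58, 7.62 and 6.40 in shScrambled (-0.86 ± 0.21, adjusted p = 0.00350). Col7a1 had 4.80, 3.95 and 3.85 against 5.75, 8.05 and 6.30 (-0.67 ± 0.19, adjusted p = 0.00988), and its call was lost without shScrambled 2 (-0.52, adjusted p = 0.0602).

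The other tested genes were not called. Col18a1, whose C-terminal fragment is endostatin, stood at 115 ± 8.36 and 109 ± 3.62 CPM (SD, n = 3) and Col23a1 at 6.59 and 6.41, with adjusted p of 0.346 and 0.859. Col15a1 was tested at 1.25 and 0.911 CPM and not called. The 19 genes that were not tested summed to 3.15 CPM in shGAA and 2.99 in shScrambled. They include Col2a1 of cartilage (2 counts in all libraries together), Col10a1 of growth plate cartilage (15 counts) and Col28a1, the highest at 42 counts. Col6a6, Col9a1 and Col9a2 had 0 counts in all 6 libraries, which with 3 counts taken as the limit allows up to 0.306 CPM in shGAA 1.

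Because several collagens are built from fixed sets of chains, the ratio of 2 chain RNAs of 1 type was computed in each library, per kilobase of transcript. Of the pairs of chains that occur in 1 molecule, 5 were chosen, and other pairs of types V and VI with enough counts were not computed. The groups were apart for each of the 5. By the CPM of single genes, the groups were apart for 49.6% of all tested genes. The share for ratios of other gene pairs was not computed. The log2 ratio of Col1a1 to Col1a2 was -5.18 ± 0.12 in shGAA and -4.55 ± 0.15 in shScrambled (SD, n = 3). That of Col6a3 to Col6a1 was 0.08 ± 0.17 and 0.74 ± 0.17, so that Col6a3 RNA exceeded Col6a1 RNA 1.67-fold in controls and 1.06-fold in shGAA. Smaller differences were seen for Col4a1 to Col4a2 (0.47 ± 0.06 and 0.28 ± 0.02), Col5a1 to Col5a2 (-0.78 ± 0.02 and -0.57 ± 0.04) and Col6a1 to Col6a2 (1.13 ± 0.04 and 1.30 ± 0.05). Each gave p = 0.1 in a two-sided exact permutation test, the smallest that 3 against 3 libraries allow, and 0.1 after adjustment over the 5 ratios. These ratios use the same counts as the fits above and are not separate evidence.

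**Figure D5:**
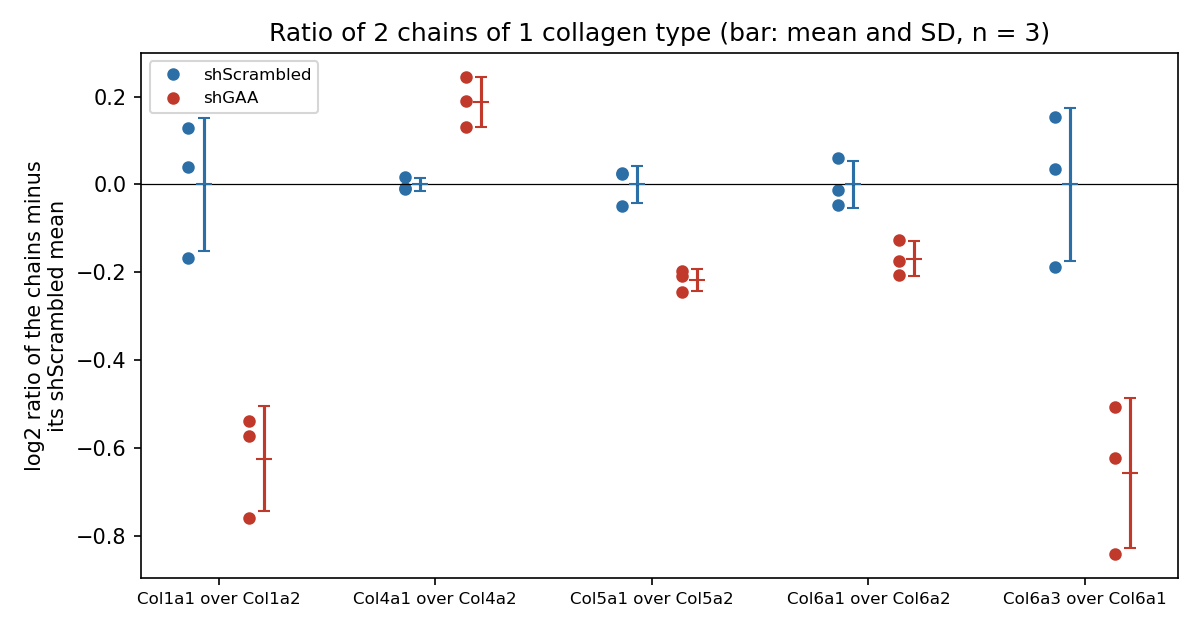
Log2 ratio of 2 chains of 1 collagen type in each library, minus the shScrambled mean of that ratio (y axis), with the mean and SD of 3 libraries beside the points. The shGAA points (red) lie below the controls (blue) for 4 of the 5 ratios and above them for Col4a1 over Col4a2.

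Promoter sequence is shown for 4 of the genes that differed, 2 higher and 2 lower, from the 5 whose upstream windows overlap 0 annotated exon bases. Each window is the 250 bases before the RefSeq start on GRCm38.p6, 5′ to 3′ on the gene's strand, and capitals mark matches on either strand to the TATA box (letters TATAAA), the box named by its letters CCAAT, and the GC box (letters GGGCGG). No 2 matches overlap in these 4 windows. They are Col3a1 (chr1:45311288-45311537, plus strand), Col8a1 (chr16:57754738-57754987, minus strand), Col5a3 (chr9:20815068-20815317, minus strand) and Col6a3 (chr1:90843972-90844221, minus strand).
Col3a1: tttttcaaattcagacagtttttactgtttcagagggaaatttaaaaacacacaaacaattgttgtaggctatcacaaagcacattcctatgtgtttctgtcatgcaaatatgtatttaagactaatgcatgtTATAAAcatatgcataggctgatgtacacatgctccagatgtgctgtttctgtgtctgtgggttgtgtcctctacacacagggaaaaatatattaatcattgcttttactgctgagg
Col8a1: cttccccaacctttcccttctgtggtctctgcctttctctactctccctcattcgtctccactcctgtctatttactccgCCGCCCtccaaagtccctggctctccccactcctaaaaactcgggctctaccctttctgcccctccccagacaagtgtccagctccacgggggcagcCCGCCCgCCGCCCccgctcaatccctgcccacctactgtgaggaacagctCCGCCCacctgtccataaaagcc
Col5a3: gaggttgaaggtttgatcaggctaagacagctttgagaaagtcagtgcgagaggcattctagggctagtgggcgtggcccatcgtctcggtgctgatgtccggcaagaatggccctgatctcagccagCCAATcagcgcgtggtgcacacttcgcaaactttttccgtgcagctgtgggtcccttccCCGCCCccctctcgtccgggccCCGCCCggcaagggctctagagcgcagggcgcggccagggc
Col6a3: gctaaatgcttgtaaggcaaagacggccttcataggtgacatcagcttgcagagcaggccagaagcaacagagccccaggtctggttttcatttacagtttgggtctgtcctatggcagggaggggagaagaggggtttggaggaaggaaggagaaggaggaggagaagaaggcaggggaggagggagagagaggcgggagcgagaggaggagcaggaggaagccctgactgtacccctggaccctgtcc

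Col3a1 had 1 TATA box match and no match to the other motifs, Col8a1 had 4 GC box matches, Col5a3 had 1 CCAAT box and 2 GC box matches, and Col6a3 had none of the 3. Over the 35 collagen genes with a window, 14.3% held TATAAA, 37.1% held CCAAT and 60% held GGGCGG, against 12.4%, 33.8% and 32.7% of all 32851 windows of that length. The E-box, CANNTG, was also searched and is not marked in the sequences; 54.3% of the collagen genes and 66.2% of all windows held it. CCAAT was present in 7 of the 8 lower genes with a window and in 1 of the 3 higher ones. GGGCGG was present in 5 and 2 of them, TATAAA in 1 and 1, and the E-box in 3 and 3. These counts include windows that overlap annotated exons. Among the lower genes with CCAAT, those of Col1a2, Col4a1, Col4a2, Col16a1 and Col17a1 do so by 52 to 250 bases. The window of Col4a5, the higher gene with CCAAT, does so by 34. A match describes letters in the window only, and no test was made of the motif counts.

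Lists of genes that act on collagen were read from the same fit, and their counts stand beside a background of 38.2% of all tested genes called, 18.5% higher and 19.7% lower. Among enzymes and chaperones that modify, fold and export the chains, 2 of 20 tested genes were higher, 6 were lower and 12 were not called, so that 40% were called, near the background of 38.2%. Sec23a, a coat protein of the vesicles that carry procollagen from the endoplasmic reticulum, was at 145 ± 1.29 against 116 ± 3.53 CPM (SD, n = 3; 0.33 ± 0.05, adjusted p = 8.73e-05). Colgalt1, which adds galactose to hydroxylysine, was at 154 ± 2.20 against 185 ± 10.4 CPM (-0.27 ± 0.05, adjusted p = 0.000744). The chaperone Serpinh1 (HSP47), which binds the folded helix, had 843 and 884 CPM and was not called. This list depends on the scaling: with library size alone, 4 were higher and 2 were lower. Leaving out 1 library gave 1 to 3 higher and 2 to 6 lower, the fewest without shGAA 2.

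Among genes that cut procollagen or crosslink fibrils, 1 of 11 was higher, 6 were lower and 4 were not called, where 18.5% of all tested genes were higher and 19.7% lower. Lox, the enzyme that starts crosslinking, had 490, 435 and 477 CPM in shGAA and 631, 749 and 703 in shScrambled (-0.57 ± 0.06, adjusted p = 8.32e-06). Pcolce2 had the largest fall of the list, at 43.8 CPM in shGAA against 139 in shScrambled (-1.67 ± 0.06, adjusted p = 2.31e-12). Adamts14, which removes the N-terminal propeptide, fell by 0.63 (SE 0.06, adjusted p = 2.85e-07), and Pcolce, which speeds removal of the C-terminal one, fell by 0.42 (SE 0.05, adjusted p = 2.64e-06). Bmp1, the C-proteinase itself, was the higher gene, at 0.15 ± 0.05 (adjusted p = 0.0262), but it passed without shScrambled 1 and in no other fit that left out 1 library (adjusted p up to 0.119). Lower Lox, Adamts14 and Pcolce stood beside lower Col1a1 and Col1a2 and higher Col3a1 in the same libraries. Adamts2, Loxl1, Loxl2 and Pxdn were the genes not called, and a link between this list and the chains was not tested.

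Of 10 tested collagen receptors 1 was higher, 4 were lower and 5 were not called, against 38.2% called over all tested genes. The integrin beta 1 gene Itgb1 was at 866 ± 18.0 against 1197 ± 51.6 CPM (SD, n = 3; -0.47 ± 0.04, adjusted p = 3.71e-07). The receptor tyrosine kinase Ddr1 was at 106 ± 4.29 against 164 ± 3.69 CPM (-0.63 ± 0.05, adjusted p = 1.36e-07), and its relative Ddr2, at 359 and 343 CPM, was not called. Antxr1, which binds collagens at the cell surface, was the higher one, at 127 ± 7.96 against 78.4 ± 4.91 CPM (0.69 ± 0.06, adjusted p = 2.46e-07).

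Among 9 small proteoglycans and fibril organisers 4 were higher, 2 were lower and 3 were not called (all tested genes: 18.5% higher, 19.7% lower). Thbs1, higher by 0.57 ± 0.07, had the smallest adjusted p of the list (0.000159). Ogn, higher by 0.90 ± 0.19, had the largest change (adjusted p = 0.0254). It had 616, 683 and 702 CPM in shGAA and 267, 407 and 402 in shScrambled, lowest in shScrambled 1. Decorin (Dcn) was higher by 0.24 ± 0.05 (adjusted p = 0.00111), while biglycan (Bgn) was lower, at -0.39 ± 0.07 (adjusted p = 0.000732). Of 8 tested collagenases, gelatinases and their inhibitors, 5 were higher, 1 was lower and 2 were not called, against the same 18.5% and 19.7%. Mmp14, a membrane-bound collagenase, was at 419 ± 18.1 against 263 ± 15.8 CPM (SD, n = 3; 0.67 ± 0.05, adjusted p = 4.96e-08), and Mmp2, a gelatinase that Mmp14 activates, rose by 0.29 ± 0.06 (adjusted p = 0.00107). The inhibitors split: Timp2 rose by 0.29 ± 0.04 (adjusted p = 2.45e-05), and Timp1 had 379, 339 and 362 CPM in shGAA against 992, 717 and 739 in shScrambled (-1.18 ± 0.15, adjusted p = 0.00312). Timp1 was highest in shScrambled 1. Without shGAA 2 or shGAA 3 the higher genes numbered 2 of the proteoglycan list and 3 of the collagenase list.

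Summed levels of markers of cell types differed between the groups in both directions, and their part in the collagen results was not tested. Their counts stand beside 18.5% of all tested genes higher and 19.7% lower. The 15 myotube markers summed to 2322 to 2547 CPM in shGAA and 3033 to 3390 in shScrambled, and of 14 tested 8 were lower and 6 were not called. Most of that sum was Des, at 1664 against 2047 CPM, which was among the lower genes. Of the 14, 11 had a log2 fold change below 0 and 3 above it (Myod1, Ttn and Myh4, not called). Leaving out 1 library gave 6 to 11 lower myotube markers and 0 or 1 higher. The 10 fibroblast markers summed to 669 to 719 against 870 to 1014 CPM, with 1 of 7 tested higher and 2 lower. That sum and the list's median point opposite ways: Ly6a (438 against 697 CPM) and Cd34 (143 against 196) were lower, Scara5 (91.7 against 29.7) was higher, and the median log2 fold change of the 7 was 0.28, with 5 above 0. Thy1 and Tcf21 had 0 counts in all libraries. The 12 osteoblast and chondrocyte markers summed to 85.6 to 89.5 against 112 to 127 CPM, with 1 of 4 tested lower and Ibsp, Chad and Hapln1 at 0. Most of that sum was the lower gene, Sox9, at 75.9 against 108 CPM. The other tested genes of the list, Bglap2, Dmp1 and Phex, were not called. The 7 endothelial markers summed to at most 5.44 CPM in any library, with 1 of 2 tested higher, 1 lower, and Tie1 and Emcn at 0. The 7 smooth muscle and pericyte markers summed higher in shGAA, to 303 to 336 against 273 to 294 CPM, while 2 of 5 tested were lower and 3 were not called, with a median of -0.38. Most of that sum came from Pdgfrb and Notch3, which were not called. In shScrambled 1, 2 and 3, Pdgfrb stood at 59.9, 124 and 133 CPM and Notch3 at 200, 115 and 120.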

How the data were processed

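RNA sequencing was done on 6 C2C12 libraries, 3 with a hairpin against Gaa and 3 with a scrambled one. The values the authors deposited are raw counts of reads, whole numbers by gene symbol with no normalization, 1 column for each library. The submitters' processing notes name mm10, FastQC, HISAT2 2.1.0, Subread and edgeR. Annotation, strandedness and treatment of multiply mapped reads: not given in the sources used here. The collagen genes, classes and other gene lists were chosen with earlier results of these data known.

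Counts were filtered with filterByExpr, which left 11801 genes with 99.9% of the counts, scaled by TMM (factors 0.979 to 1.02), and tested in edgeR 4.0.16 (R 4.3.3) by the robust quasi-likelihood F-test with group as the only term. Adjusted p-values are Benjamini-Hochberg over all tested genes, called under 0.05. SE is the fold change divided by the square root of F. Levels per kilobase use the longest GENCODE M21 coding transcript. Of the 25 tested collagen genes, 3 share any 50-base stretch with another gene's transcripts, at most 1.67% (Col3a1). Every called collagen gene was named, as were uncalled members of the 4 classes with a mean of at least 5 CPM. In the other lists a few genes each were picked after their values were seen. Chain ratios (both chains at 100 counts or more in every library) were tested by exact permutation. The 14 alternatives for the calls were other scalings, filters and tools (DESeq2 1.42.0, limma 3.58.1), a length and GC correction, a replicate block and leaving out each library. Nothing in the labels says that same-numbered libraries pair, so the numbers were not taken as pairs. Those libraries did not deviate together (r = -0.04, 0.06 and -0.01), which with so few libraries cannot exclude pairing. The same alternatives were run on the other lists, a choice made after seeing the data. The code was tested on simulated data.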

Additional observations from a re-analysis of the deposited data

How the results depend on the processing

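Over the 14 alternatives, 3 to 5 collagen genes were higher and 9 or 10 were lower. Of the 14 called genes, 12 kept their call under every alternative. The 7 lost calls were 6 of Col4a5 and 1 of Col7a1. Col4a5 was lost under DESeq2 (adjusted p = 0.103), the length and GC correction (0.0794), and without shGAA 1 (0.207), shGAA 3 (0.0569), shScrambled 2 (0.109) or shScrambled 3 (0.126). Col14a1 passed with no filter on low counts (adjusted p = 0.0109), with the replicate block (0.0178), and without shGAA 3 (0.00860) or shScrambled 1 (0.0332). With the replicate block 5 collagen genes were higher and 10 were lower, and it changed no other call among them. The numbers are shared between groups, but nothing in the labels says that they pair the libraries. Signs changed only for genes that were not called. Col5a1 gave -0.011 under the length and GC correction. Leaving out 1 library gave log2 fold changes from -0.028 to 0.15 for Col23a1, -0.37 to 0.50 for Col24a1 and -0.31 to 0.16 for Col27a1. The median over tested collagen genes ranged from -0.08 to 0.08 and so has no stable sign. Scaling by library size alone moved the median of all tested genes from 0.01 to 0.05 and their calls from 2182 higher and 2330 lower to 2809 and 1872, while the collagen calls stayed at 4 and 10. DESeq2 called 1563 and 1858 genes. Low counts limit the 19 untested genes and the 6 tested below 5 CPM.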
